A study of Danio rerio with 24 samples.

Results

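This account compares zebrafish larvae raised in constant darkness with larvae raised under a light-dark cycle, both without the chemical tested in the series. The 8 libraries, 4 in each group, are part of 24. The animals were Danio rerio of a wild-type strain, whole embryos by their labels, and were held in 0.1% dimethyl sulfoxide (DMSO), the vehicle, from 0.75 to 120 h post fertilisation (hpf). The dark group had 24 h of darkness a day, and the cycle group had 14 h of light and 10 h of darkness. Both groups carried 0 µM perfluorohexane sulfonate (PFHxS), the fluorinated surfactant that the other 16 libraries received at 0.0025 or 25 µM under the same 2 photoperiods. The series asks whether photoperiod changes the developmental toxicity of PFHxS, and these 8 libraries give the photoperiod difference without it.

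The tables list 32520 genes, and 18347 of them were compared because their FPKM (fragments scaled to gene length and to the size of the library) reached 0.5 in at least 4 of the 8 libraries. That threshold was met by 610 genes in exactly 4 libraries, and missed by 664 genes that met it in 3. A gene that passes only through the group where it is high can be in the list for that reason alone. Photoperiods were taken from the titles, because the treatment text names darkness even for cycle samples. The dark libraries form one library series and the cycle libraries another, so a difference between photoperiods and a difference between library series cannot be told apart. Neither the clock time of collection, the number of larvae per library nor the clutches are given, so the p-values measure the spread between these libraries, which may be technical.

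The circadian clock of vertebrates is a feedback loop in which CLOCK and BMAL proteins switch on genes with E-box elements, among them period and cryptochrome genes whose products then inhibit CLOCK and BMAL. Further loops run through the nuclear receptors of the REV-ERB and ROR families and through the D-box factors TEF, DBP, HLF and NFIL3. Zebrafish cells and tissues respond to light directly: light induces per2 and cry1a among others, and larvae raised in darkness from fertilisation are known to lack a clock phase shared across the body. A level measured at a single time therefore reads both the mean of a rhythmic transcript and the phase at collection, and these cannot be told apart here.

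Dark libraries held 8440914 to 9243435 fragments over genes and cycle libraries 10090844 to 18181864, so every cycle library was deeper, and the part of depth in the results was not tested. Mitochondrially encoded transcripts took 5.08 to 5.65% of fragments in darkness and 4.88 to 5.42% under the cycle, and the 10 most abundant genes took 11.6 to 11.9% and 11.9 to 13.1%. Log2 values correlated with r of 0.950 to 0.956 between dark libraries, 0.948 to 0.965 between cycle libraries, and 0.918 to 0.927 between a dark and a cycle library. The tables may have been scaled separately, so each library was divided by 1 factor (1.004 to 1.007 in darkness, 1.007 to 1.019 under the cycle) to set levels on a common scale. The marker lists of lens, retina, muscle, liver, intestine, pancreas, skin and neurons all had transcripts in every library.

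Over the 18347 genes, 1984 were higher in darkness (10.8%) and 2022 lower (11.0%) at a limma adjusted p under 0.05, which is 21.8% of genes in either direction. Differences of at least 2-fold among them numbered 592 higher (3.23%) and 497 lower (2.71%). The 4 dark libraries lay above all 4 cycle libraries for 2402 genes (13.1%) and below them for 2331 (12.7%), which together is 25.8% of genes. For every list count below, the background is 10.8% of all genes higher and 11.0% lower. A count near its share is not a result about that list. The split between directions depends on how the 2 tables are scaled: with each library scaled to its total fragments, 2631 genes were higher and 1482 lower, so that 64.0% of calls were higher, against 49.5% with the factors used here. A difference of log2 is darkness minus cycle throughout, on log2(FPKM + 0.1), which understates the change of low genes. Genes named as higher or lower kept that call in each of 8 fits that left out 1 library, except where the text says otherwise.

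**Figure D1:**
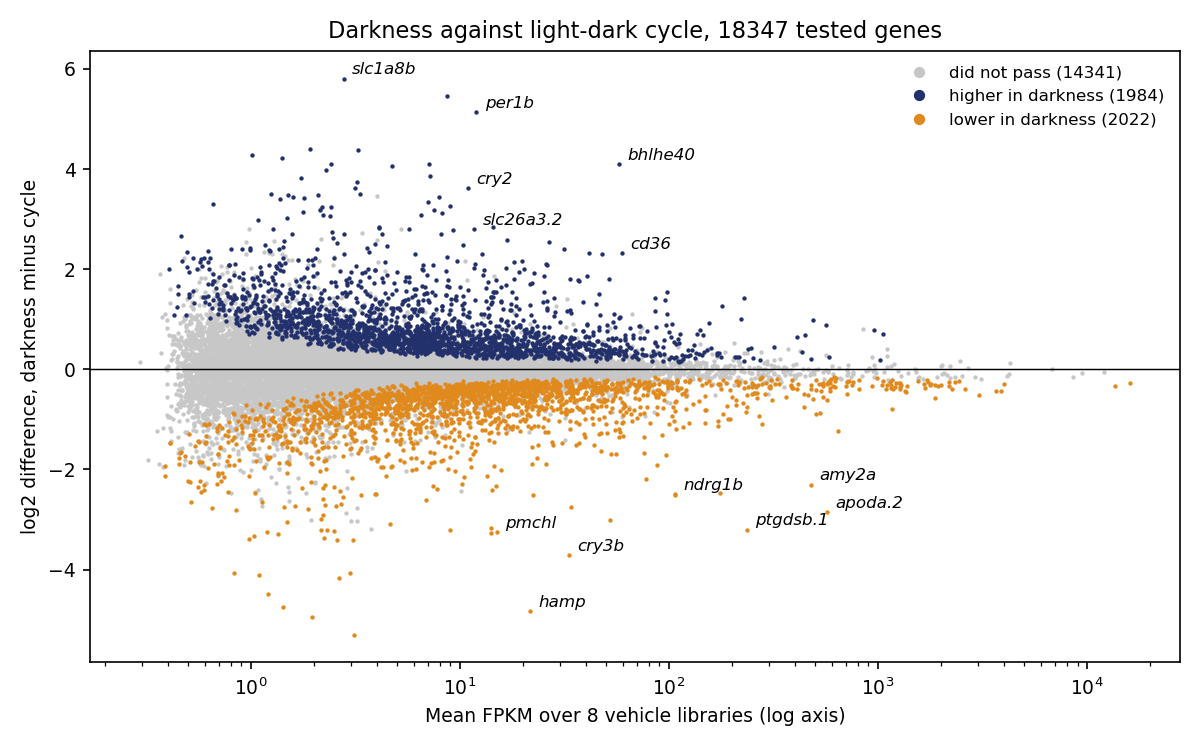
Each point is 1 of 18347 genes, placed by its mean FPKM over the 8 vehicle libraries (horizontal, log axis) and its log2 difference, darkness minus cycle (vertical). Genes past the limma adjusted p of 0.05 are blue where higher in darkness (1984) and orange where lower (2022), and the widest differences, such as per1b at 5.13 and hamp at −4.83, are labelled.

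Clock transcripts were among those that separated the groups most widely. Of the 4 period genes, whose products form the repressing arm of the clock, per1b, per3 and per1a rose and per2 fell. For per1b (chromosome 7, 50822465 to 50847296, plus strand) the values were 22.8, 22.9, 23.1 and 24.7 FPKM in the dark libraries, against 0.611, 0.642, 0.609 and 0.440 FPKM in the cycle libraries. For per1a (chromosome 10, 22809715 to 22831611, minus strand) they were 9.36, 9.91, 8.96 and 8.01 FPKM in the dark libraries, against 0.397, 0.418, 0.444 and 0.541 FPKM in the cycle libraries. The dark values of both genes lay more than 10 times above any cycle value, and the groups did not come near each other. The log2 difference was 5.13 ± 0.13 (SE) for per1b (limma adjusted p = 7.39e-08) and 4.06 ± 0.15 for per1a (limma adjusted p = 6.77e-07). The other rise, per3 (chromosome 11, 39959039 to 40021080, plus strand), had 4.76, 4.73, 4.42 and 4.62 FPKM in the dark libraries, against 0.118, 0.266, 0.148 and 0.194 FPKM in the cycle libraries, a log2 difference of 4.10 ± 0.22 (limma adjusted p = 7.71e-06). The level filter was passed by per3 through the dark group alone. In the other direction, per2 (chromosome 2, 48309600 to 48375342, minus strand), the period gene that light induces, had 2.32, 2.05, 2.56 and 1.59 FPKM in the dark libraries, against 3.22, 5.32, 4.62 and 3.17 FPKM in the cycle libraries. Its groups stood apart by less than the spread within the cycle group, and the log2 difference was −0.89 ± 0.21 (limma adjusted p = 0.0174).

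Cryptochromes split by gene. They are relatives of the light-driven DNA repair enzymes called photolyases, and zebrafish have more copies than mammals, some of them clock repressors and some induced by light. Of 12 tested genes in the list of cryptochromes and photolyases, which also holds the repair genes neil1, ddb2 and xpc, 3 rose and 5 fell. For cry2 (chromosome 25, 13846883 to 13871121, minus strand) the values were 19.3, 20.4, 19.7 and 21.5 FPKM in the dark libraries, against 1.13, 1.71, 1.55 and 1.88 FPKM in the cycle libraries. The light-inducible cry1a had 22.5, 20.9, 20.6 and 25.2 FPKM in the dark libraries, against 7.01, 12.2, 9.46 and 10.5 FPKM in the cycle libraries, with every dark library above every cycle library. Log2 differences were 3.63 ± 0.15 for cry2, 2.46 ± 0.17 for cry1b and 1.21 ± 0.15 for cry1a, at limma adjusted p of 1.18e-06, 3.36e-05 and 8.77e-04.

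The opposite was seen for cry3b (chromosome 22, 786556 to 809282, plus strand), with 4.38, 4.50, 5.01 and 4.76 FPKM in the dark libraries, against 58.0, 74.0, 60.4 and 56.0 FPKM in the cycle libraries. All 4 dark libraries sat within 1 FPKM of each other and more than 10-fold below the lowest cycle library, a log2 difference of −3.70 ± 0.10 (limma adjusted p = 8.51e-08). Its paralog cry3a followed at −1.65 ± 0.19, and cry4 at −0.76 ± 0.12. Among repair enzymes, the glycosylase neil1, which removes oxidised bases, was at −0.78 ± 0.17, and the photolyase gene listed as zgc_66475 (cpdp in the gene name table), which reverses ultraviolet damage with light, was at −0.65 ± 0.13. The remaining 4, cry-dash (0.11), ddb2 (0.31), xpc (0.008) and CT025742.1 (0.40), did not pass, and the sign of the near-zero difference for xpc turned with FPKM as deposited and with some libraries left out. A further member, cry5, did not reach the level filter.

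Repressors that bind E-boxes or CLOCK rose with the period genes: of 8 tested genes in that list, which also holds clock kinases, 6 were higher and 1 lower. For bhlhe40 (chromosome 11, 35759652 to 35763323, minus strand), a transcription factor that competes for E-boxes, the values were 109, 114, 110.4 and 104 FPKM in the dark libraries, against 6.97, 7.20, 6.66 and 4.65 FPKM in the cycle libraries. Every dark library was above 100 FPKM and every cycle library below 10, and the log2 difference was 4.10 ± 0.13 (limma adjusted p = 2.98e-07). Its relative bhlhe41 was at 2.14 ± 0.21. The CLOCK and BMAL repressors ciarta and ciartb averaged 69.1 ± 2.40 against 13.7 ± 1.39 FPKM and 15.9 ± 1.79 against 3.60 ± 1.22 FPKM (dark against cycle, SD, n = 4 each), log2 differences of 2.33 ± 0.079 and 2.17 ± 0.24. Chosen after their values were seen, the casein kinase genes csnk1db (0.60) and csnk1da (0.23) complete the 6, and fbxl3l, related to the ubiquitin ligase adaptor that degrades cryptochromes in mammals, was the 1 that fell (−1.87).

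Of 4 tested activators of the loop 2 fell and 1 rose. Among them arntl1a, a BMAL gene, had 13.6, 12.01, 13.8 and 16.7 FPKM in the dark libraries, against 22.5, 21.4, 23.5 and 23.3 FPKM in the cycle libraries, and its log2 difference was −0.70 ± 0.10 (limma adjusted p = 0.00157). For arntl1b it was −0.95 ± 0.23 (limma adjusted p = 0.0191), a call lost without cycle replicate 3 and with replicate number as a block. Its partner clockb had 7.84, 8.03, 7.30 and 8.79 FPKM in the dark libraries, against 5.54, 6.03, 5.54 and 5.49 FPKM in the cycle libraries, higher in every dark library, at 0.49 ± 0.092 (limma adjusted p = 0.00591), a call lost when all 24 libraries were fitted together. The values for clocka, 0.502, 0.372, 0.318 and 0.181 FPKM in darkness and 0.618, 0.830, 1.08 and 0.335 FPKM under the cycle, overlapped and did not pass.

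REV-ERB receptors repress and ROR receptors activate the BMAL genes, and of 9 tested members 5 rose and 2 fell. Among them nr1d2b (chromosome 19, 17400263 to 17407115, plus strand) had 80.0, 78.7, 79.7 and 79.3 FPKM in the dark libraries, against 16.3, 15.8, 15.7 and 15.8 FPKM in the cycle libraries. Within each group its libraries differed by under 5% of their mean, and the log2 difference was 2.31 ± 0.050 (limma adjusted p = 3.92e-08). Also higher were nr1d1 at 1.39 ± 0.11 and, of the ROR genes, rorab at 2.00 ± 0.34, rorcb at 0.76 ± 0.11 and roraa at 0.63 ± 0.089. Of these, rorab passed the level filter through the dark group alone. Lower were nr1d4a at −0.88 ± 0.14 and nr1d4b at −1.06 ± 0.086, fish REV-ERB paralogs that averaged 14.0 ± 2.91 against 25.5 ± 1.68 FPKM and 23.5 ± 2.69 against 48.7 ± 2.41 FPKM (dark against cycle, SD, n = 4 each). The receptor genes nr1d2a (−0.67 ± 0.23) and rorb (−0.35 ± 0.33) did not pass by limma, while limma-voom called nr1d2a lower.

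D-box factors are the clock's output regulators, TEF, DBP and HLF proteins activating where NFIL3 proteins repress. Of 8 tested genes the 5 that rose were all activators and the 1 that fell was an NFIL3 gene. For dbpa (chromosome 19, 10177115 to 10196370, minus strand) the values were 24.5, 25.2, 24.0 and 27.4 FPKM in the dark libraries, against 3.46, 4.05, 3.11 and 3.17 FPKM in the cycle libraries. Dark libraries were at least 5 times above every cycle library, a log2 difference of 2.84 ± 0.10 (limma adjusted p = 5.81e-07). Its paralog dbpb was at 2.77 ± 0.10, tefb at 2.00 ± 0.19, tefa at 1.39 ± 0.18 and hlfa at 0.84 ± 0.10. The falling member, nfil3-6, averaged 5.57 ± 0.753 FPKM in darkness and 11.6 ± 1.46 FPKM under the cycle (SD, n = 4 each), a log2 difference of −1.04 ± 0.13. Values of hlfb (0.17 ± 0.15) and nfil3-5 (−0.13 ± 0.16) overlapped between groups and did not pass.

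**Figure D2:**
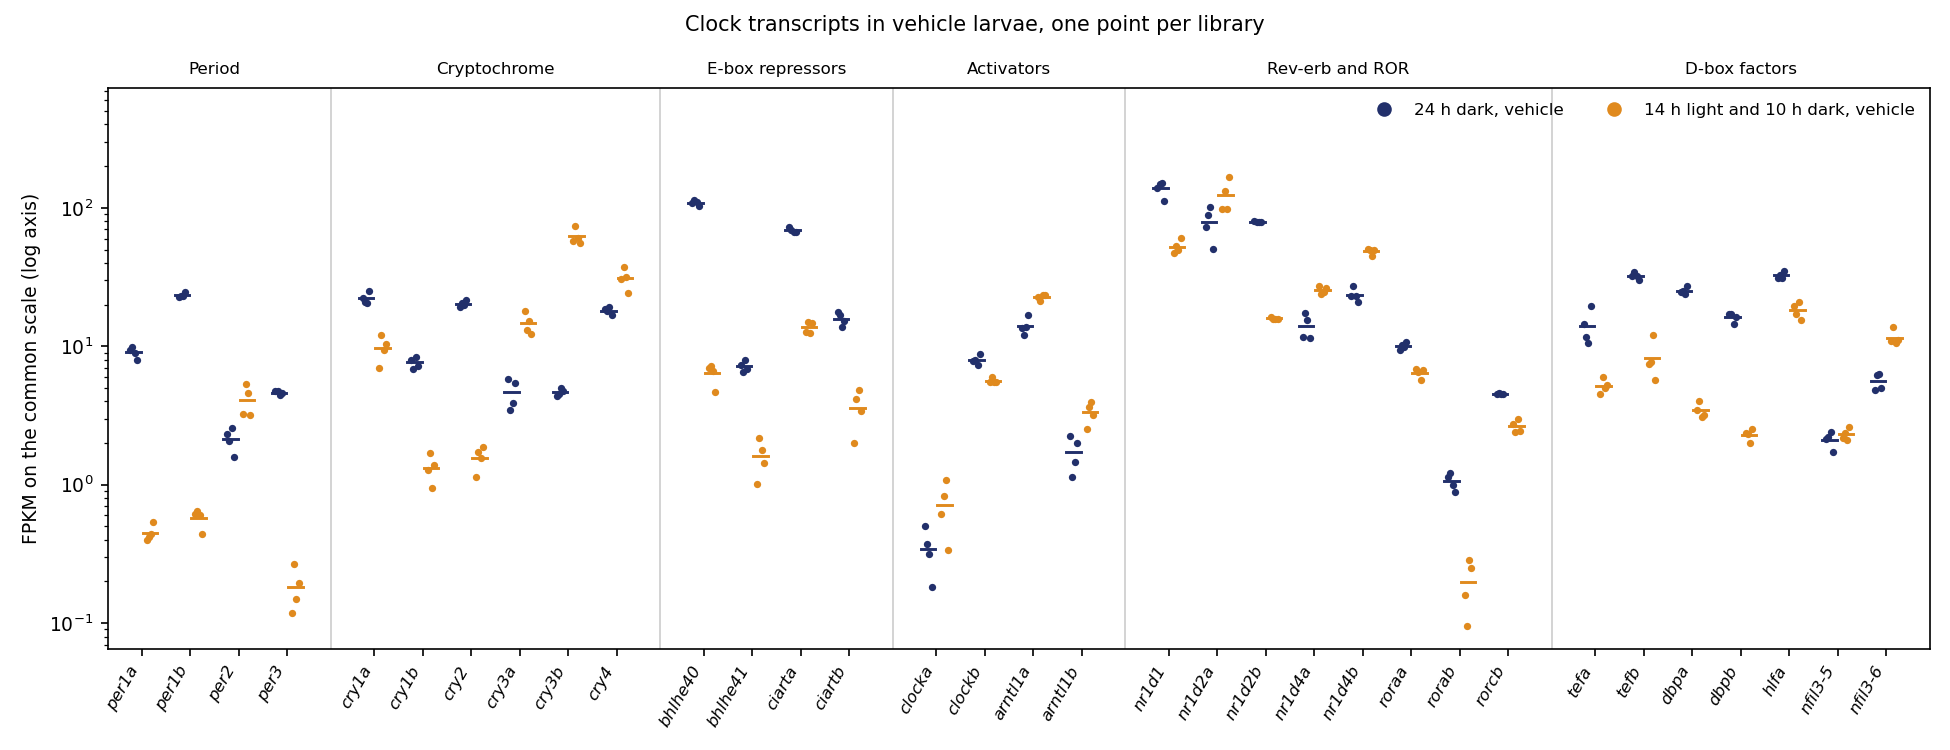
FPKM on the common scale (log axis) of 33 tested clock genes, 1 point per library, with darkness (blue) left of the cycle (orange) for each gene and a bar at the mean of 4. The dark points of per1a, per1b, per3, cry2 and bhlhe40 lie more than 10-fold above the cycle points, those of cry3b more than 10-fold below, and those of clocka, nr1d2a and nfil3-5 overlap with the cycle points.

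Genes that light is known to induce did not share a direction. Of 11 tested in a further list 2 rose and 4 fell, against 10.8% and 11.0% of all genes. That list shares neil1 with the cryptochrome list. The rises were dtl, a substrate receptor of a ubiquitin ligase in replication and repair, at 1.68 ± 0.30, and lonrf1l at 1.23 ± 0.17. Falls included hmox1a, haem oxygenase, with 16.3, 10.6, 11.1 and 12.9 FPKM in the dark libraries, against 24.0, 25.9, 32.4 and 21.8 FPKM in the cycle libraries. Its highest dark library lay below its lowest cycle library, at −1.03 ± 0.16. The other falls were neil1, named above, the catalase gene cat at −0.48 ± 0.068 and hif1al at −0.28, the last chosen after its value was seen and lost without any 1 of 3 libraries.

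The pineal gland makes melatonin at night through aanat2, its rate-limiting enzyme, and for aanat2 (chromosome 3, 54887782 to 54893706, plus strand) the values were 4.16, 4.65, 4.84 and 4.54 FPKM in the dark libraries, against 12.6, 15.9, 12.6 and 13.2 FPKM in the cycle libraries. Dark libraries held about 3-fold less, without overlap, and the log2 difference was −1.55 ± 0.10 (limma adjusted p = 2.49e-05). The pineal opsin exorh and the photoreceptor regulator crx were at −0.73 ± 0.12 and −0.82 ± 0.10. In contrast, asmt, which carries out the last step of melatonin synthesis, averaged 4.79 ± 1.09 FPKM in darkness and 2.65 ± 0.590 FPKM under the cycle (SD, n = 4 each), at 0.83 ± 0.20. In all, of 13 tested pineal and melatonin genes 1 rose and 4 fell, the fourth, otx5 (−0.24), chosen after its value was seen and lost without any 1 of 6 libraries.

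Cones carry the daylight vision of larvae, and each cone type holds its own opsin, the light-sensing receptor. Of 5 tested cone opsins 3 rose and 1 fell. For the ultraviolet opsin opn1sw1 (chromosome 4, 13577665 to 13580348, minus strand) the values were 1332, 1363, 1226 and 1298 FPKM in the dark libraries, against 885, 749, 753 and 801 FPKM in the cycle libraries. For the blue opsin opn1sw2 they were 57.5, 53.4, 47.7 and 54.8 FPKM in the dark libraries, against 35.4, 33.1, 28.7 and 35.9 FPKM in the cycle libraries. The green opsin opn1mw1 averaged 550.4 ± 27.7 FPKM in darkness and 339.9 ± 17.3 FPKM under the cycle (SD, n = 4 each). In all 3 the dark libraries lay above every cycle library, with log2 differences of 0.71 ± 0.066, 0.68 ± 0.088 and 0.70 ± 0.058 and limma adjusted p of 1.51e-04, 9.29e-04 and 8.22e-05.

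The green opsin copy opn1mw2 (chromosome 6, 41186320 to 41189460, plus strand) went the other way, with 8.76, 4.26, 5.07 and 2.78 FPKM in the dark libraries, against 29.7, 24.8, 24.1 and 20.0 FPKM in the cycle libraries, at −2.32 ± 0.29 (limma adjusted p = 7.84e-04). The green opsin genes stand in tandem and are much alike, so fragments may have been divided between them unevenly. Red opsin, opn1lw2, had 157, 137, 91.8 and 165 FPKM in the dark libraries, against 215, 173, 166 and 222 FPKM in the cycle libraries. All 4 dark values lay below the cycle values, dark replicate 3 furthest, and the difference did not pass by limma (−0.52 ± 0.18, limma adjusted p = 0.0678), while limma-voom and the fit with replicate number as a block called it lower.

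Downstream of the opsins, 12 of 28 cone phototransduction genes rose and 2 fell, against 10.8% and 11.0% of all genes. The median log2 difference was 0.62 over the 28, against −0.0099 over all genes. For the cone transducin gnat2 (chromosome 8, 25225590 to 25247284, minus strand), which passes the signal on from opsin, the values were 269, 258, 241 and 247 FPKM in the dark libraries, against 129, 96.0, 97.5 and 105 FPKM in the cycle libraries, a log2 difference of 1.26 ± 0.093 (limma adjusted p = 4.29e-05). The opsin kinase grk7a, which shuts opsin off, averaged 33.2 ± 2.16 FPKM in darkness and 10.2 ± 2.00 FPKM under the cycle (SD, n = 4 each), at 1.71 ± 0.13. The phosphodiesterase inhibitory subunit pde6ha was at 1.81 ± 0.087 and recoverin rcvrn3 at 1.22 ± 0.087. The 2 that fell, chosen after their values were seen, were guca1g, a guanylate cyclase activator (−2.03), and guk1b, a guanylate kinase (−0.68). Summed over the list, dark libraries held 1419 to 1544 FPKM and cycle libraries 903 to 1096. In whole larvae fewer cells of a type and less RNA per cell cannot be told apart, here and for every tissue list that follows.

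Rod genes had 4 of 23 higher and 1 lower (1 to 3 with a library left out), against 10.8% and 11.0% of all genes. The median of the rod list was −0.002, and its sums, 1384 to 1509 FPKM in darkness and 1166 to 1744 under the cycle, overlapped. The rod phosphodiesterase subunit pde6ga was at −0.90 ± 0.12, while the arrestin sagb was at 0.97 ± 0.20 and recoverin rcvrna at 1.68 and the disc protein gene prph2a at 0.45 were also higher. Lens genes, mostly crystallins, had 4 of 40 higher, which is near the 10.8% of all genes. With 1 library left out the lens count was 1 to 3, and of the 4 only crygm2d12 (0.60 ± 0.14) kept its call in those 8 fits, and it was lost when all 24 libraries were fitted together.

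The visual cycle regenerates the retinoid that opsins lose on absorbing light. Of 32 genes in that list, which includes retinoid uptake, 13 fell and 4 rose, against 11.0% and 10.8% of all genes. For rpe65a (chromosome 2, 1428696 to 1443692, minus strand), the isomerase of the retinal pigment epithelium, the values were 28.6, 31.0, 39.5 and 46.1 FPKM in the dark libraries, against 108, 137, 106 and 108 FPKM in the cycle libraries, a log2 difference of −1.68 ± 0.15 (limma adjusted p = 1.29e-04). The retinaldehyde binding proteins rlbp1b and rlbp1a were at −1.95 ± 0.19 and −0.49 ± 0.091. The retinoid photoisomerase rgra averaged 13.3 ± 1.89 FPKM in darkness and 29.2 ± 3.60 FPKM under the cycle (SD, n = 4 each), at −1.13 ± 0.12, and rgrb was at −0.997 ± 0.14. The plasma carrier of retinol, rbp4, had 369, 374, 351 and 396 FPKM in the dark libraries, against 666, 666, 702 and 691 FPKM in the cycle libraries, at −0.87 ± 0.051. In the other direction, bco1, which cleaves carotene to retinal, was at 1.09 ± 0.075, and the other 3 rises, chosen after their values were seen, were its relative bco1l (1.64) and the retinol dehydrogenases rdh10a (1.04) and rdh8b (0.97). Opsins outside the cones and rods had 5 of 15 lower and 2 higher, against the same shares of all genes. The rises were opn9 at 0.56 ± 0.11 and opn6a (0.46), the second lost without any 1 of 6 libraries. The falls were exorh, rgra and rgrb, named above, and, chosen after their values were seen, opn6b (−0.60) and rrh (−1.36), each lost without any 1 of 5 libraries, and without dark replicate 2, cycle replicate 2 or cycle replicate 4, 3 of the 15 were lower.

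Pigment genes went both ways. Melanin is made from tyrosine in melanophores, and zebrafish larvae disperse or gather melanin with background and light. For tyr (chromosome 15, 43799258 to 43818697, plus strand), tyrosinase, the first enzyme of the path, the values were 10.2, 10.3, 9.82 and 12.8 FPKM in the dark libraries, against 1.81, 2.95, 2.96 and 2.22 FPKM in the cycle libraries, a log2 difference of 2.09 ± 0.17 (limma adjusted p = 7.42e-05). The later enzymes tyrp1b and tyrp1a were at 1.10 ± 0.076 and 0.96 ± 0.15. In that list 5 of 15 rose and 3 fell, against 10.8% and 11.0% of all genes. Within it, the melanosome scaffold gene pmelb had 3.39, 2.69, 2.89 and 4.90 FPKM in the dark libraries, against 16.3, 21.6, 14.5 and 15.8 FPKM in the cycle libraries, at −2.29 ± 0.19. The rises also held oca2 (1.41), needed for pigment in melanosomes, and pmela (0.59), the paralog of pmelb, both chosen after their values were seen. The other 2 falls, gpr143 and trpm1b, chosen in the same way, were lost without any 1 of 5 or more libraries.

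Xanthophores, the yellow cells, make pteridines through gch2, and gch2 (chromosome 12, 25085751 to 25092570, plus strand) had 52.0, 36.5, 37.5 and 41.5 FPKM in the dark libraries, against 10.9, 10.2, 7.44 and 9.95 FPKM in the cycle libraries, at 2.11 ± 0.15 (limma adjusted p = 3.16e-05). The xanthophore transporter slc2a15b was at 0.87 ± 0.13, and gpnmb, a melanosome protein, and apoda.1, a lipocalin, were lower at −0.81 ± 0.061 and −1.10 ± 0.13, as was the pigment cell transcription factor tfec (−1.31), chosen after its value was seen. As apoda.1 (chromosome 2, 37207799 to 37210397, minus strand) lies within the more abundant apoda.2 on the plus strand, these genes may share fragments. The part of apoda.2 in the fall of apoda.1 was not tested. Of 23 xanthophore and iridophore genes 4 rose and 3 fell, against 10.8% and 11.0% of all genes. The sums of the list, 270.3 to 312 FPKM in darkness and 262 to 297 under the cycle, overlapped.

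Melanin-concentrating hormone, which pales the skin and acts in the hypothalamus, is encoded by pmch and pmchl. For pmchl (chromosome 5, 54685175 to 54685710, plus strand) the values were 3.67, 2.16, 1.43 and 4.62 FPKM in the dark libraries, against 20.3, 34.1, 28.1 and 26.0 FPKM in the cycle libraries, and for pmch (chromosome 4, 17336557 to 17338753, plus strand) they were 1.70, 1.20, 1.32 and 0.556 FPKM in the dark libraries, against 6.74, 8.06, 5.94 and 6.39 FPKM in the cycle libraries. Every dark value lay below every cycle value in both genes, with log2 differences of −3.26 ± 0.33 and −2.49 ± 0.28 (limma adjusted p = 2.28e-04 and 4.53e-04). Of 29 neuropeptide genes 8 fell, against 11.0% of all genes, and none rose by limma (1 at an unadjusted p under 0.05, 0 by limma-voom). Among these 29, gnrh3, gonadotropin-releasing hormone, was at −1.42 ± 0.20, and crhb, corticotropin-releasing hormone at the top of the stress axis, was at −0.79 ± 0.11. Its binding protein crhbp was at −0.76 ± 0.085. Neither gnrh3 nor crhb passed in the same contrast at 0.0025 or 25 µM. The difference between 0.0025 µM and vehicle did not pass for either (limma adjusted p of 0.468 and 0.447).

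Of 21 genes of the stress axis and its glucocorticoid targets 8 fell and 2 rose, against 11.0% and 10.8% of all genes. The rises were per1a and pck1, and the falls include crhb, also counted in the neuropeptide list. The gluconeogenic enzyme gene pck1 had 291, 333, 323 and 225 FPKM in the dark libraries, against 108, 147, 188 and 143 FPKM in the cycle libraries, at 1.01 ± 0.17. In the pituitary and thyroid list 2 of 19 fell, a share close to the 11.0% of all genes. For thyroglobulin tg, the protein from which thyroid hormone is cut, the mean was 0.985 ± 0.228 FPKM in darkness and 3.22 ± 0.571 FPKM under the cycle (SD, n = 4 each), at −1.63 ± 0.21. The second fall, dio3b (−0.73), a thyroid hormone inactivating enzyme, was lost without any 1 of 5 libraries.

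**Figure D3:**
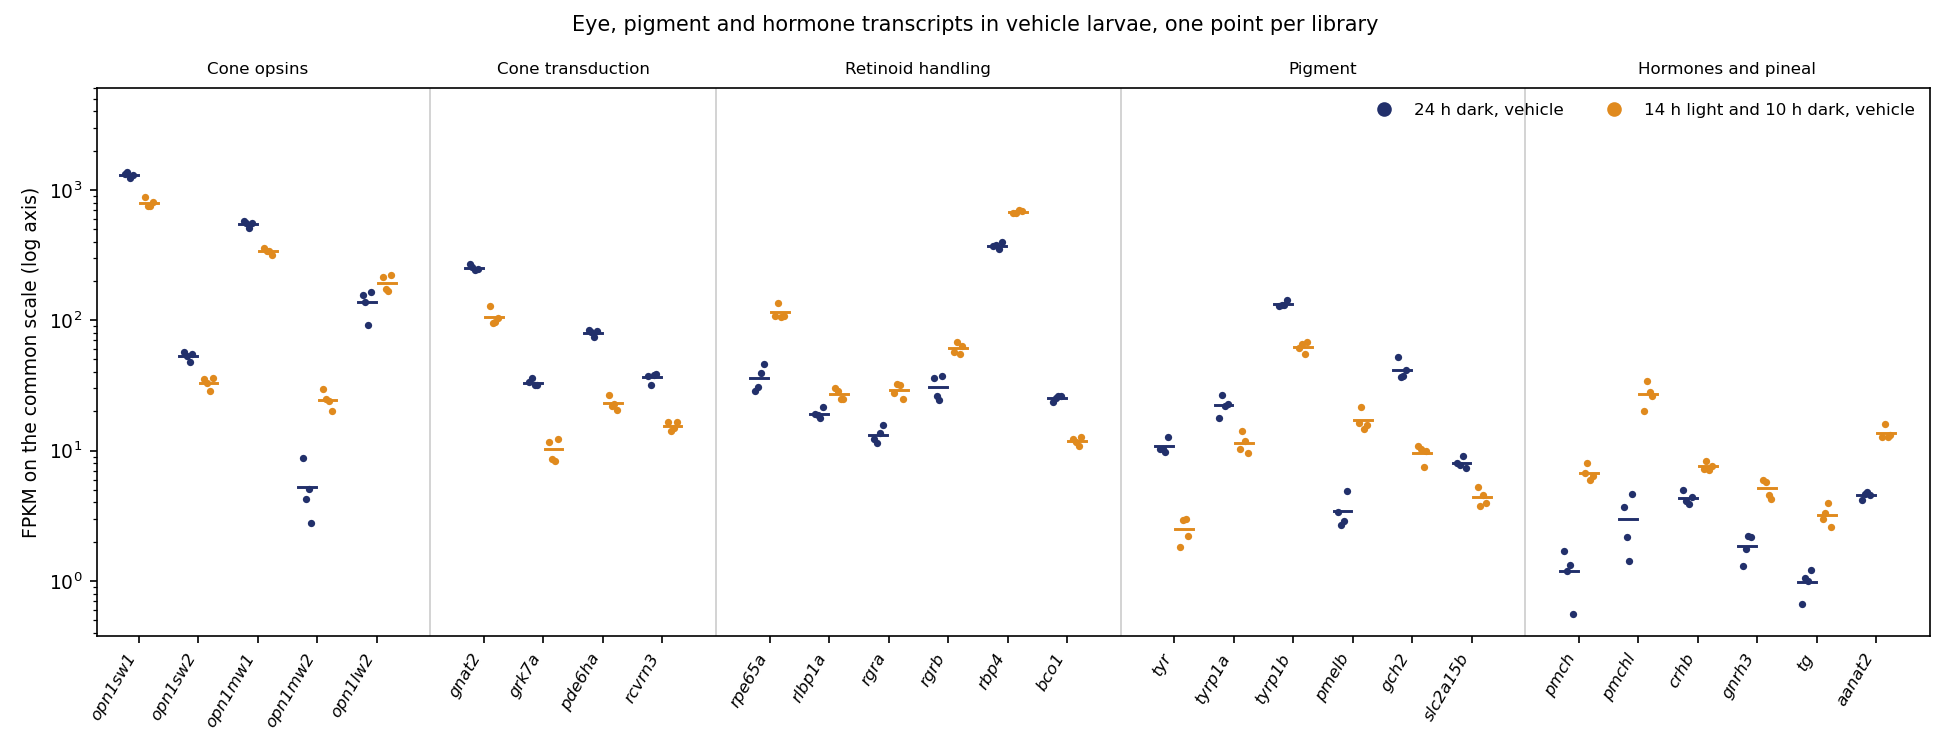
FPKM on the common scale (log axis) of 27 eye, pigment, hormone and pineal genes, 1 point per library, with darkness (blue) left of the cycle (orange) for each gene and a bar at the mean of 4. Dark points lie above cycle points for opn1sw1, gnat2, tyr and gch2 and below them for opn1mw2, rpe65a, pmelb, pmchl and aanat2.

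Outside the clock lists, some of the widest rises were in transporters, receptors and metabolic enzymes. For slc1a8b (chromosome 2, 37110504 to 37122351, plus strand), of the glutamate transporter family, dark libraries had 5.996, 6.42, 4.44 and 5.35 FPKM on 72 to 98 fragments each, while no fragment was counted in any cycle library. Set against an assumed floor of 3 fragments over the cycle group, darkness was 177-fold higher, a figure that rests on that floor. The gene passed the level filter through the dark group alone. At 0.0025 and 25 µM the cycle libraries averaged 0.050 and 0.099 FPKM, against 6.30 and 9.01 FPKM in darkness. A second glutamate transporter, slc1a2a, had 12.5, 13.3, 13.8 and 14.2 FPKM in the dark libraries, against 1.09, 1.16, 0.320 and 1.12 FPKM in the cycle libraries, at 3.85 ± 0.33. The GABA receptor subunit gabrr1 was at 3.62 ± 0.29, cipca, a homolog of a mammalian CLOCK-binding protein, at 4.38 ± 0.34, the deubiquitinase usp21 at 3.98 ± 0.21, and mat2ab, which makes S-adenosylmethionine, at 3.45 ± 0.25. Both cipca and usp21 passed the level filter through the dark group alone. Less even was rrm2, a subunit of ribonucleotide reductase, with 16.5, 9.89, 7.50 and 18.9 FPKM in the dark libraries, against 4.52, 0.825, 1.90 and 0.321 FPKM in the cycle libraries. Its lowest dark and highest cycle library stood less than 2-fold apart, and the log2 difference was 3.17 ± 0.65 (limma adjusted p = 0.00893). The GTPase regulator rgs16 (3.34) was lost without dark replicate 1.

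The widest falls were led by hepcidin, hamp (chromosome 16, 50289916 to 50292583, plus strand), the liver hormone that holds iron in cells, with 1.46, 0.515, 2.43 and 1.27 FPKM in the dark libraries, against 35.9, 42.0, 69.3 and 20.9 FPKM in the cycle libraries. The 4 cycle libraries spread over 3-fold and all lay more than 8 times above the highest dark library, a log2 difference of −4.83 ± 0.45 (limma adjusted p = 1.53e-04). The lipocalins ptgdsb.1, a prostaglandin D synthase, and apoda.2, apolipoprotein D, were abundant transcripts under the cycle. For ptgdsb.1 (chromosome 24, 17027310 to 17029374, minus strand) the values were 54.5, 47.4, 33.6 and 49.1 FPKM in the dark libraries, against 478, 473, 451 and 301 FPKM in the cycle libraries. For apoda.2 (chromosome 2, 37207461 to 37215989, plus strand) they were 132, 157, 125 and 133 FPKM in the dark libraries, against 1115, 1046, 1060.0 and 774 FPKM in the cycle libraries. Both were lowest, within the cycle group, in cycle replicate 4, which still lay over 4-fold above every dark library, and the log2 differences were −3.20 ± 0.18 and −2.86 ± 0.12.

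Further falls were ndrg1b, a hypoxia-responsive gene, with 39.3, 27.6, 29.6 and 33.0 FPKM in the dark libraries, against 176, 197, 189 and 164 FPKM in the cycle libraries, at −2.49 ± 0.11. The neuropeptide pth2 was at −3.23 ± 0.28, the caspase caspbl at −3.40 ± 0.31, the embryonic globin hbae5 at −2.76 ± 0.41 and the ubiquitin ligase adaptor asb15b at −2.69 ± 0.19. Of these, hbae5 passed the level filter through the cycle group alone. The glycine cleavage gene gcsha (−2.70) was lost without dark replicate 1, cycle replicate 1 or cycle replicate 4. Of 44 microRNA precursors 9 were lower (20.5%, against 11.0% of all genes), with a median log2 difference of −1.08. None was higher by limma (0 at an unadjusted p under 0.05, 0 by limma-voom). A median precursor had 1 fragment per dark library and 3 per cycle library, so single fragments set these values. At such levels a precursor can pass the level filter through the deeper cycle libraries alone, so the shared direction cannot be read as a result.

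Replication genes rose together. Before a cell divides it loads the MCM helicase on DNA and copies its genome, and of 45 tested genes of replication and nucleotide supply 30 rose, against 10.8% higher over all genes, and none fell by limma (0 at an unadjusted p under 0.05, 0 by limma-voom). With 1 library left out 21 to 30 rose. The median was 0.73, and the summed level was 570.5 to 588 FPKM in darkness and 315 to 437 FPKM under the cycle, with no overlap. For the helicase subunit mcm5 (chromosome 3, 25999477 to 26011440, plus strand) the values were 23.3, 26.2, 25.5 and 25.9 FPKM in the dark libraries, against 8.88, 6.13, 5.92 and 11.1 FPKM in the cycle libraries, a log2 difference of 1.69 ± 0.18 (limma adjusted p = 3.77e-04). The subunits mcm2 and mcm7 were at 1.33 ± 0.15 and 0.77 ± 0.067, and uhrf1, which guides maintenance of DNA methylation, was at 1.55 ± 0.15.

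Mitosis genes did not follow. Of 49 genes of the spindle, kinetochore and cytokinesis 13 fell and 3 rose, against 11.0% and 10.8% of all genes. Their median was −0.30, with sums of 302 to 321 FPKM in darkness and 356 to 458 FPKM under the cycle. For the cytokinesis gene anln the values were 5.39, 4.80, 4.74 and 5.11 FPKM in the dark libraries, against 8.06, 7.18, 7.60 and 8.21 FPKM in the cycle libraries, a log2 difference of −0.62 ± 0.092 (limma adjusted p = 0.00190). Spindle gene nusap1 was at −0.61 ± 0.10, kinetochore gene nuf2 at −0.61 ± 0.11 and checkpoint gene mad2l1 at −0.59 ± 0.10. When all 24 libraries were fitted together, 1 of the 49 was lower, and these 3 lost their calls. The 3 rises, esco2, cenph and mybl2b, chosen after their values were seen, were lost without any 1 of 6 or more libraries. Histones had 4 of 9 lower (1 to 4 with a library left out), and each of the 4 was lost without at least 1 library.

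**Figure D4:**
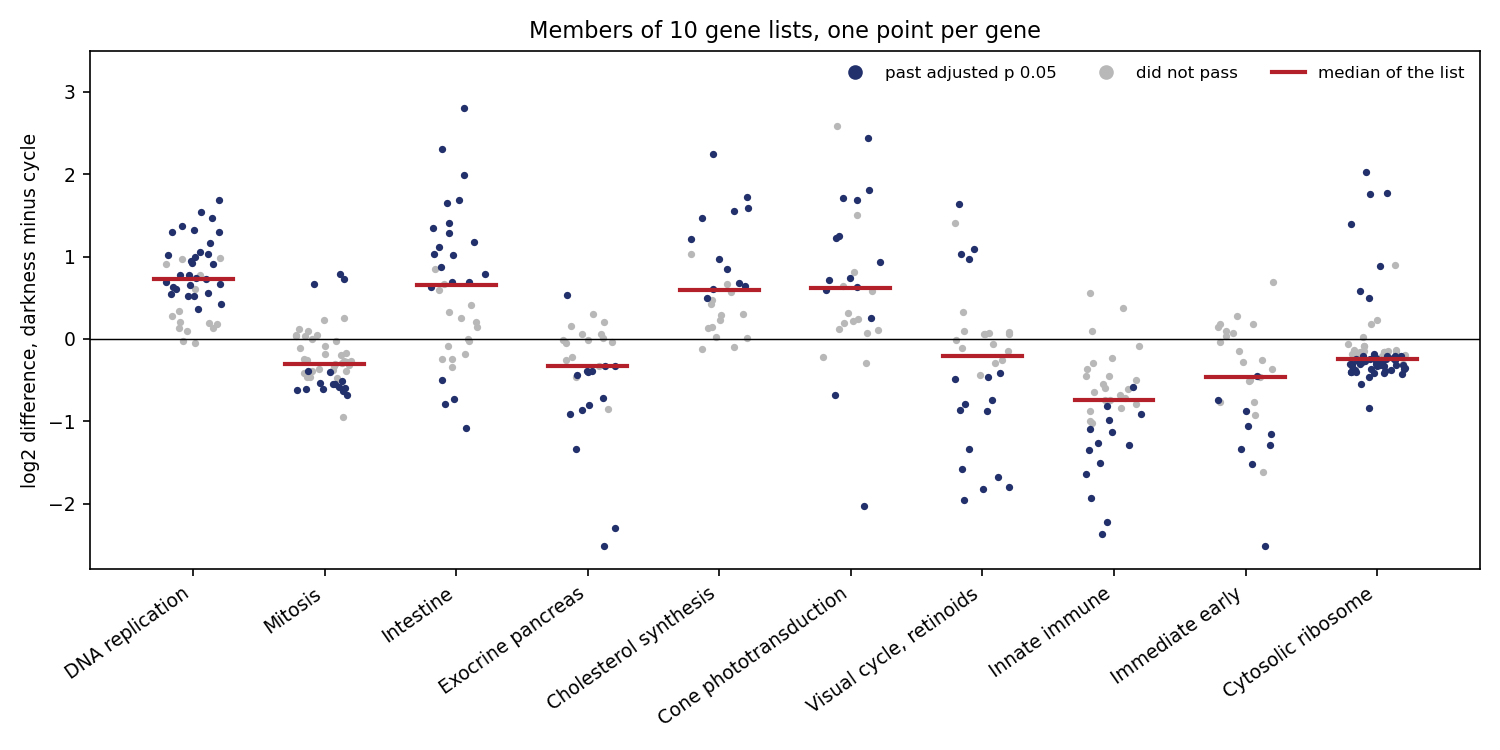
Log2 difference, darkness minus cycle (vertical), of every tested member of 10 gene lists, 1 point per gene, blue where past the limma adjusted p of 0.05 and grey where not, with a red bar at the median of the list. The replication list has a median of 0.73 and the mitosis list of −0.30, and most cytosolic ribosomal genes lie in a narrow band around −0.24.

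The gut and its glands differed by organ. Of 36 intestinal genes 17 rose and 4 fell, against 10.8% and 11.0% of all genes, with a median of 0.65. For slc26a3.2 (chromosome 4, 18804317 to 18823032, plus strand), a chloride and bicarbonate exchanger, the values were 20.1, 20.2, 19.3 and 22.4 FPKM in the dark libraries, against 2.69, 3.16, 2.56 and 2.97 FPKM in the cycle libraries, at 2.81 ± 0.10 (limma adjusted p = 5.06e-07). The lactase gene lct had 6.26, 6.30, 6.54 and 6.11 FPKM in the dark libraries, against 1.35, 1.44, 1.69 and 1.57 FPKM in the cycle libraries, at 1.99 ± 0.12, and the brush border protein vil1 was at 1.35 ± 0.077. Meprin mep1a.2 was at 1.65 ± 0.11 and the fatty acid binding protein fabp2 at 2.31 ± 0.24. Summed over the list, the groups overlapped, with 1840.1 to 2052 FPKM in darkness and 1656 to 2042 FPKM under the cycle. The 4 falls were ctsl.1 (−0.73), a cathepsin, and, chosen after their values were seen, the chitinase chia.3 (−1.08), the phosphatase alpi.1 (−0.50) and agr2, the last lost without any 1 of 6 libraries.

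Digestive enzymes of the exocrine pancreas fell, 13 of 29 (9 to 13 with a library left out), against 11.0% of all genes. The 1 rise was cpb1 (0.53), chosen after its value was seen and lost without dark replicate 4. Their median was −0.33, and the summed level was 10655 to 12891 FPKM in darkness and 15012 to 17417 FPKM under the cycle, with no overlap. Amylase, amy2a (chromosome 2, 15612755 to 15626972, plus strand), had 155, 161, 154 and 165 FPKM in the dark libraries, against 958, 852, 774 and 592 FPKM in the cycle libraries, at −2.30 ± 0.13 (limma adjusted p = 7.83e-06). Carboxypeptidase cpa1 (chromosome 25, 18448186 to 18454016, minus strand) had 27.9, 30.6, 28.2 and 40.4 FPKM in the dark libraries, against 212, 176, 188 and 147 FPKM in the cycle libraries, at −2.51 ± 0.14. In both genes the cycle libraries were at least 3-fold above the dark libraries, while cpa5 and c6ast4, other proteases, were at −0.80 ± 0.11 and −0.86 ± 0.10.

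Cholesterol synthesis genes rose, 12 of 26, with none lower by limma (0 at an unadjusted p under 0.05, 0 by limma-voom), and the median was 0.59. The summed level was 230.1 to 265 FPKM in darkness and 163 to 185 FPKM under the cycle. For hmgcra (chromosome 5, 50972485 to 50992775, minus strand), the rate-limiting reductase, the values were 16.3, 12.8, 11.0 and 17.7 FPKM in the dark libraries, against 3.18, 2.82, 3.32 and 2.38 FPKM in the cycle libraries, at 2.25 ± 0.17 (limma adjusted p = 4.64e-05). The later enzymes cyp51, sqlea and msmo1 were at 1.55 ± 0.15, 1.47 ± 0.16 and 0.85 ± 0.094.

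Fatty acid genes were mixed. The uptake receptor cd36 (chromosome 4, 22658472 to 22671469, minus strand) had 93.4, 104, 97.3 and 103 FPKM in the dark libraries, against 16.8, 26.0, 21.7 and 16.3 FPKM in the cycle libraries, at 2.32 ± 0.14 (limma adjusted p = 1.23e-05), and the nuclear receptor pparg, a regulator of fat storage, was at 0.85 ± 0.093. In the list of fatty acid oxidation and PPAR genes 12 of 53 rose and 11 fell, against 10.8% and 11.0% of all genes. Of 23 lipogenesis genes 6 rose, and 3 rose without dark replicate 4. Bile and lipoprotein genes had 3 of 29 higher (3 to 7 with a library left out), close to the 10.8% of all genes. The 3 were the gut hormone fgf19, which limits bile acid synthesis, at 2.84 ± 0.19, the apolipoprotein apoa4b.2 at 2.14 ± 0.20 and, chosen after its value was seen, the lipoprotein assembly gene mttp (0.69). In the same list 6 were lower, against 11.0% of all genes, among them apoeb at −0.60 ± 0.13.

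Of 52 glycolysis and gluconeogenesis genes 23 rose and 5 fell, with glucose transporter slc2a2 at 1.01 ± 0.10 and slc2a1a at 1.85 ± 0.27, and with pfkma and eno3, muscle enzymes, lower at −0.60 ± 0.075 and −0.35 ± 0.049. Of 55 xenobiotic genes 24 rose and 5 fell, the falls numbering 3 without dark replicate 2 or 3. The sulfotransferase sult1st2 (chromosome 8, 46513743 to 46525092, minus strand) had 13.9, 15.2, 14.3 and 15.6 FPKM in the dark libraries, against 1.24, 1.51, 1.80 and 1.94 FPKM in the cycle libraries, at 3.12 ± 0.14 (limma adjusted p = 2.01e-06). Cytochromes cyp2ad2 and cyp2n13 and the efflux pump abcb4 were at 2.54 ± 0.11, 2.09 ± 0.11 and 1.91 ± 0.095. The cytochrome P450 genes of a subfamily stand in tandem, so counts of close paralogs may share fragments. In haem synthesis, alas1, the first and limiting enzyme, had 311, 314, 330.0 and 373 FPKM in the dark libraries, against 109.9, 119, 159 and 113 FPKM in the cycle libraries, at 1.42 ± 0.12, whereas uros was at −0.92 ± 0.10.

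Of 49 hepatocyte genes 12 fell and 4 rose, against 11.0% and 10.8% of all genes. Their median was −0.066 and their sums overlapped, 5267 to 5605 FPKM in darkness and 5588 to 6441 FPKM under the cycle. Besides hamp and rbp4, the falls included leg1.1 and leg1.2, secreted liver proteins, at −0.75 ± 0.10 and −1.98 ± 0.28. Of 33 insulin and growth factor genes 3 rose and 5 fell, against 10.8% and 11.0% of all genes. The insulin signalling target foxo3b was at 0.67 ± 0.060 and the glucagon gene gcgb at −1.05 ± 0.17.

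Of 37 innate immune genes 14 fell, against 11.0% of all genes, and none rose by limma (0 at an unadjusted p under 0.05, 0 by limma-voom). The median was −0.74, and without cycle replicate 3 the count of falls was 9. For tnfb (chromosome 15, 34699585 to 34702661, plus strand), a tumour necrosis factor, the values were 0.310, 0.394, 0.557 and 0.732 FPKM in the dark libraries, against 1.88, 2.71, 4.30 and 3.12 FPKM in the cycle libraries, at −2.37 ± 0.31 (limma adjusted p = 0.00102). NF-kappa-B inhibitors nfkbiaa and nfkbiab, which that pathway induces as feedback, were at −1.34 ± 0.18 and −1.09 ± 0.11, and the prostaglandin synthase ptgs2a was at −1.26 ± 0.19. The summed level of the list was 309 to 442 FPKM in darkness and 572 to 800.2 FPKM under the cycle, without overlap. Lymphocyte and thymus genes had 4 of 8 lower, of which il7r (−1.19 ± 0.26) and ccl25a (−0.60 ± 0.11) kept their calls with any library left out and ccr9a and ccl25b did not.

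Of 29 immediate early genes, which neurons and stressed cells switch on within minutes, 9 fell, against 11.0% of all genes. None rose by limma (0 at an unadjusted p under 0.05, 0 by limma-voom). For klf2a (chromosome 22, 15898221 to 15900919, plus strand), a factor that blood flow induces, the values were 11.4, 5.16, 7.17 and 3.70 FPKM in the dark libraries, against 53.3, 24.5, 31.5 and 43.0 FPKM in the cycle libraries, at −2.52 ± 0.34. The AP-1 gene junba had 21.6, 22.3, 29.5 and 16.3 FPKM in the dark libraries, against 38.6, 74.5, 66.5 and 43.5 FPKM in the cycle libraries, at −1.29 ± 0.24, and ier2a was at −1.06 ± 0.19. The list summed to 341 to 520.1 FPKM in darkness and 637 to 1121 FPKM under the cycle. In the p53 and cell death list 13 of 31 fell and 2 rose (1 or 2 with a library left out), the rises being ccng1 (0.50) and tp53inp1 (0.27), chosen after their values were seen and the second lost without any 1 of 6 libraries, with the cell cycle inhibitor cdkn1a at −0.98 ± 0.12, gadd45ba at −1.19 ± 0.18, the death gene pmaip1 at −1.21 ± 0.18 and casp9 at −0.83 ± 0.12.

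Chaperone genes rose in 14 of 36 cases and fell in 4, with hsf2, a heat shock factor, averaging 15.2 ± 1.33 FPKM in darkness and 4.85 ± 0.615 FPKM under the cycle (SD, n = 4 each), at 1.64 ± 0.11. The mitochondrial chaperone hspd1 and the collagen chaperone serpinh1b were at 0.79 ± 0.084 and 1.18 ± 0.18. The number that fell was 2 or 3 with a library left out, and the number that rose was 8 without dark replicate 1 or cycle replicate 3 and 9 without dark replicate 3 or cycle replicate 2. In the redox list 7 of 40 rose and 6 fell, against 10.8% and 11.0% of all genes. The glutathione transferase gstp2 was at 2.11 ± 0.24 and gpx4a, which repairs lipid peroxides, at −0.99 ± 0.069. Hypoxia genes had 6 of 25 higher and 4 lower, against the same shares of all genes. Unfolded protein genes had 8 of 38 higher and 5 lower, also against 10.8% and 11.0%, the falls numbering 1 to 4 with a library left out.

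Structural tissues are set against 11.0% of all genes lower and 10.8% higher. Among them, epidermal genes fell in 19 of 54 cases and rose in 5, a number of rises that was 2 to 8 with a library left out. The falls included the tight junction gene cldnb at −1.08 ± 0.16 and the annexin anxa1c at −1.28 ± 0.19. Keratin krt93 went the other way with 3.24, 4.93, 3.97 and 3.85 FPKM in the dark libraries, against 0.201, 0.459, 0.319 and 0.658 FPKM in the cycle libraries, at 3.08 ± 0.30. Skeletal muscle genes fell in 17 of 46 cases and rose in 6, and without dark replicate 2 these counts were 11 and 1. The muscle atrophy ligase fbxo32 had 9.66, 8.63, 11.2 and 11.9 FPKM in the dark libraries, against 24.4, 47.5, 38.5 and 34.6 FPKM in the cycle libraries, at −1.77 ± 0.19, and the calcium pump atp2a1l was at −0.90 ± 0.071. Matrix genes had 16 of 58 higher and 7 lower, with the collagens col11a1b and col6a1 at 0.60 ± 0.060 and 0.61 ± 0.10, and when all 24 libraries were fitted together 10 were higher. Neuronal genes had 14 of 49 higher and 3 lower (1 to 4 with a library left out), including the vesicle protein vamp2 at 1.04 ± 0.071 and the GABA transporter slc6a1a at 0.89 ± 0.10. Of the 3 that fell, only pvalb7 (−0.93), a parvalbumin chosen after its value was seen, kept its call with any library left out. Ionocyte and kidney genes had 11 of 37 higher and 3 lower, with the calcium channel trpv6 at 1.53 ± 0.14. One fall was pth2, the neuropeptide named above, which this list also holds. The others, chosen after their values were seen, were slc22a6l (−1.05), an anion transporter, and slc12a10.2 (−0.55). The call of slc12a10.2 was lost without any 1 of 3 libraries.

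Genes of protein synthesis and breakdown shifted by small amounts. Of 79 cytosolic ribosomal protein genes 47 fell and 7 rose, with a median of −0.24, and 33 to 46 fell with 1 library left out. For rpl19 the values were 1191, 1152, 1114 and 1132 FPKM in the dark libraries, against 1479, 1666, 1491 and 1554 FPKM in the cycle libraries, at −0.43 ± 0.054. Scaled to total fragments 39 fell and 7 rose. Of 44 proteasome genes 16 fell and 1, psmc6 (1.39), chosen after its value was seen, rose and was lost without dark replicate 3 or 4, with psma4 at −0.57 ± 0.071, and 7 fell when scaled to total fragments and 8 to 10 without dark replicate 1, 2 or 4 or cycle replicate 1. None of 13 mitochondrially encoded genes passed by limma (2 at an unadjusted p under 0.05, 1 by limma-voom). For mt-co1 the mean was 11798 ± 780.3 FPKM in darkness and 12173 ± 387 FPKM under the cycle (SD, n = 4 each), and the signs of mt-co1 (−0.047) and mt-co3 (−0.064) turned under total fragment scaling. Nuclear genes of oxidative phosphorylation had 4 of 74 higher and 11 lower, against 10.8% and 11.0% of all genes. The number of falls was 5 to 7 without dark replicate 1, 2 or 3.

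Ribosomal protein genes are abundant, and the skeletal muscle and exocrine pancreas lists also had high summed levels. In darkness these were 46870 to 49810 FPKM over 46 muscle genes and 10655 to 12891 FPKM over 29 pancreas genes. The part of level and gene length in the results of all these lists was not tested. At a mean of 100 FPKM or more, 191 of 557 genes were lower (34.3%) and 60 higher (10.8%), whereas at 1 to 10 FPKM 881 of 10554 were lower (8.35%) and 1149 higher (10.9%). Among the shortest 25% of genes 13.2% were lower and 7.75% higher, and in the next 3 classes of 25%, in order of length, 13.6%, 10.4% and 6.89% were lower and 11.6%, 12.6% and 11.4% higher, against 11.0% and 10.8% of all genes. Genes that overlap a gene on the other strand, which may share fragments where libraries were not directional, had 340 of 3472 higher and 381 lower, close to the background.

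**Figure D5:**
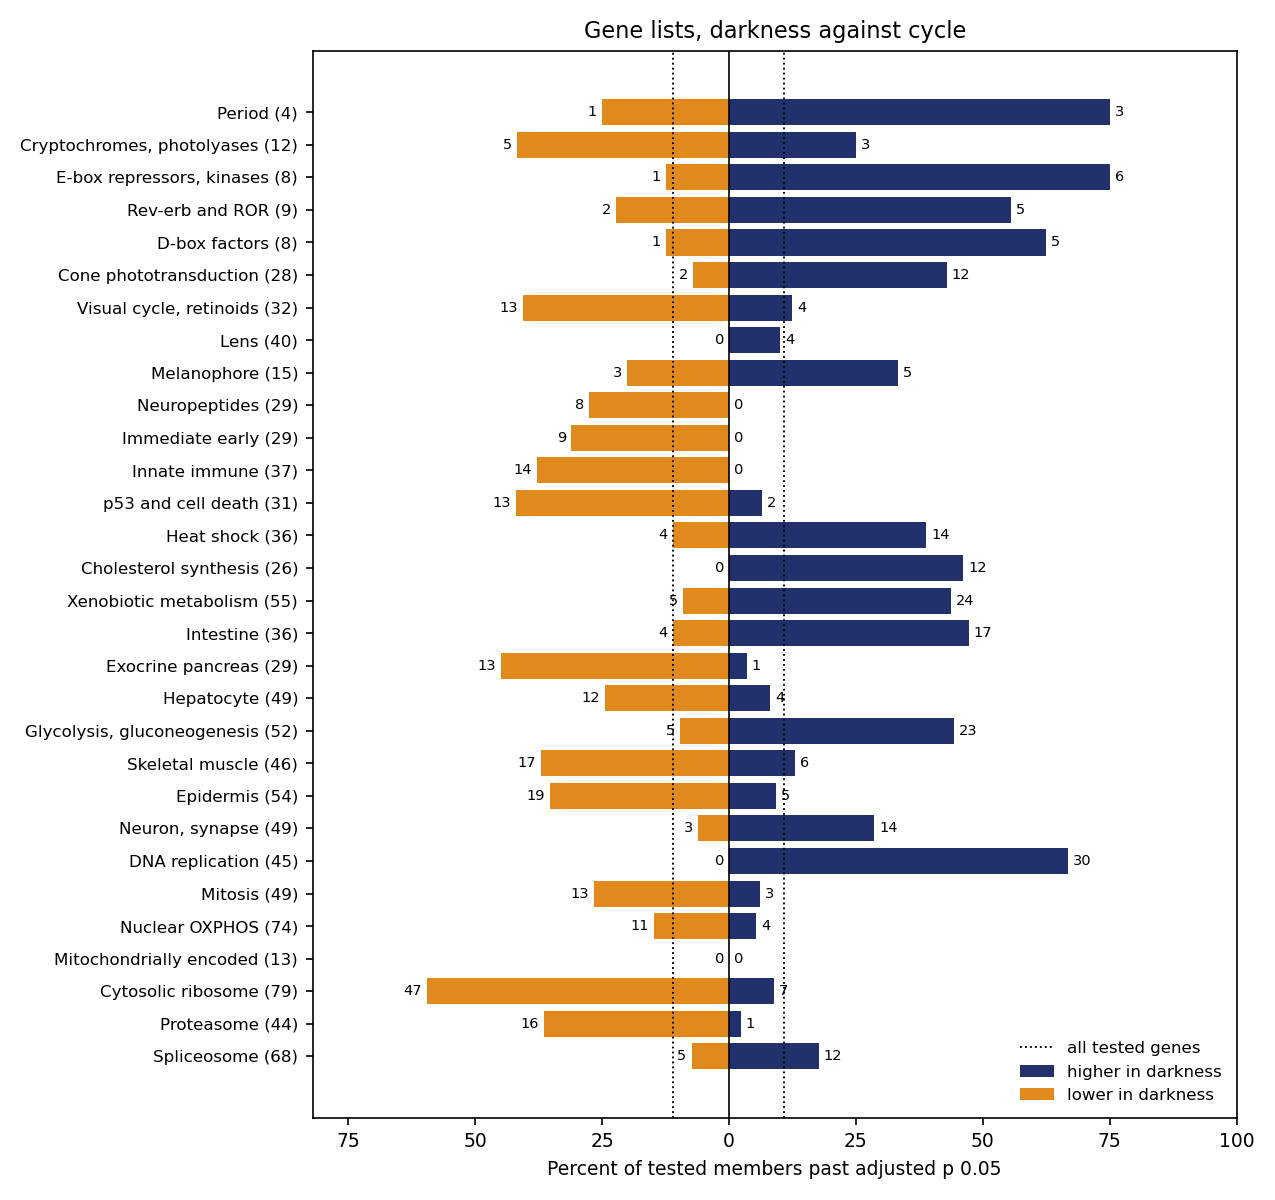
For 30 gene lists, with the number of tested members in brackets, bars give the percent of members past the limma adjusted p of 0.05, to the right where higher in darkness (blue) and to the left where lower (orange), with their number at the end. Dotted lines mark the 10.8% and 11.0% of all tested genes, and the period list (3 of 4), the E-box repressor list (6 of 8) and the replication list (30 of 45) extend past them on the right and the cytosolic ribosome list (47 of 79) on the left.

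The same contrast in exposed larvae, in libraries of the same 2 library series, gives a repeat in other libraries. Photoperiod and library series coincide at these doses too, so the repeat cannot tell them apart. At 0.0025 µM PFHxS 4019 genes passed (21.9%) and at 25 µM 4218 passed (23.0%). Of the vehicle calls, 95.1% of those higher and 93.4% of those lower had the same sign at 0.0025 µM, and 90.3% and 86.0% at 25 µM. Of all genes, 49.9% were above 0 and 50.1% below at 0.0025 µM, and 49.3% and 50.7% at 25 µM. At 0.0025 µM 2209 of the vehicle calls were called in the same direction, which is 55.1% of the vehicle calls and 55.0% of the calls at that dose. At 25 µM 1906 were shared, 47.6% of the vehicle calls and 45.2% of the calls at 25 µM. Testing the difference of the contrast between 0.0025 µM and vehicle found 1 gene (0.00545%) past a limma adjusted p of 0.05, the clone-named LO018432.1, which was chosen for that and had no fragment in any dark vehicle library.

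For individual genes the values at each dose were set side by side. The genes and lists shown here are examples chosen with their values known, and do not stand for all genes. The log2 difference of per1b was 5.13 in vehicle, 4.82 at 0.0025 µM and 4.84 at 25 µM, and that of cry3b was −3.70, −3.76 and −3.25 in the same order. The D-box repressor nfil3-6 had −1.04 in vehicle, −0.74 at 0.0025 µM and 1.02 at 25 µM, and the activator clockb had 0.49, 0.062 and 0.38. For per2 the difference was −0.89, −1.17 and −0.55. Outside the clock, pmchl had −3.26 in vehicle, −3.22 at 0.0025 µM and −1.05 at 25 µM, hamp had −4.83, −3.26 and −1.02, and opn1mw2 had −2.32, −1.55 and 0.30. Other falls did not shrink at 25 µM: apoda.2 had −2.86, −3.01 and −3.82, and cpa1 had −2.51, −3.14 and −3.16. Some falls in vehicle passed at neither dose, and the examples given were chosen after their values were seen. They were gnrh3 (−1.42, −0.22 and 0.15), crhb (−0.79, 0.003 and 0.29), rlbp1b (−1.95, 0.23 and −0.85) and hbae5 (−2.76, −0.95 and −0.009). For none of them did the difference between 0.0025 µM and vehicle pass (limma adjusted p of 0.468, 0.447, 0.302 and 0.611). The replication list had a median of 0.73 in vehicle, 1.26 at 0.0025 µM and 0.19 at 25 µM, the mitosis list −0.30, 0.20 and −0.81, and the immediate early list −0.46, −0.28 and 0.86. The neuropeptide list had −0.36, −0.26 and 0.39, and the innate immune list −0.74, −0.34 and 0.037. Medians that moved little were those of the cone phototransduction list (0.62, 0.58 and 0.58) and the exocrine pancreas list (−0.33, −0.36 and −0.44). These values at 25 µM were set beside those of vehicle, and their differences were not tested.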

How the data were processed

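Per the submitters' processing notes, reads from RNA of whole larvae were mapped by HISAT2 2.0.5, and featureCounts 1.5.0-p3 made the gene counts. The authors deposited FPKM values in 2 tables of 32520 genes, 1 per photoperiod. Coordinates come from those tables, whose genome build is not given in the sources used here. The labels' protocols describe directional and non-directional preparation without saying which was used. FPKM times gene length gave whole fragments for 100% of values (tolerance 0.001), from which depth was recovered, and no 2 libraries were identical.

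Each library was divided by a median-of-ratios factor over the 8 libraries. Differences were tested with limma 3.58.1 in R 4.3.3 (trend, moderated errors) on log2(FPKM + 0.1), with Benjamini-Hochberg adjustment over 18347 genes, a threshold of 0.05 and no fold minimum. The contrasts at 0.0025 and 25 µM came from a fit of all 24 libraries. The procedure was tested on simulated data with few changed genes and an assumed spread between libraries (dispersion 0.02). It called 10 unchanged genes, and recovered 9% of 1.5-fold, 73.1% of 2-fold and 100% of 4-fold changes. A gene that did not pass may therefore still differ. Percentages of genes called are given as background for counts in a list.

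The comparison and the 57 gene lists (1990 of 2121 entries matched to the tables, 1748 tested) were chosen with earlier results of these data known. Genes are named by rule: of genes that passed and averaged at least 1 FPKM, with a symbol that is neither a placeholder nor holds a dash, and groups that do not overlap, the 15 largest rises and 15 largest falls were taken. Up to 4 members of each list with the smallest adjusted p were added, or the 2 most abundant where none passed, and all tested members of the period, cryptochrome, activator, REV-ERB and ROR, D-box and cone opsin lists. Not every gene so selected is printed. Alternatives were FPKM as deposited, scaling to total fragments or the upper quartile, a pseudocount of 1, no filter, FPKM of at least 1 in all 8 libraries, limma-voom on recovered fragments, all 24 libraries in 1 fit, the replicate number as a block, each library left out in turn and, chosen after seeing the data, protein-coding genes only. Tests that need deposited counts were not used, and dates had replaced 12 gene symbols in the tables.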

Additional observations from a re-analysis of the deposited data

Results flagged for a closer look

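In 29 of 496 checks (248 named genes in each of 2 groups), 1 library lay farther from the other 3 of its group than Dixon's 95% value allows, which is 5.85% where chance gives about 1 in 20. Dark replicates 1 to 4 held 3, 4, 1 and 5 of these values and cycle replicates 1 to 4 held 2, 6, 2 and 6. Values are in FPKM on the common scale, with those of the other 3 libraries after them.

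Among clock genes, per1b was 24.7 in dark replicate 4, against 22.8 to 23.1, and 0.440 in cycle replicate 4, against 0.609 to 0.642. In cycle replicate 2 clockb was 6.03, against 5.49 to 5.54, and in cycle replicate 3 rorb was 1.95, against 0.695 to 0.881.

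In the eye, rcvrn3 was 31.9 in dark replicate 2, against 37.6 to 38.4, and rpe65a was 137 in cycle replicate 2, against 106 to 108. The lens membrane gene lim2.1 was 7.58 in cycle replicate 4, against 1.28 to 1.67, and tfap2a was 57.2 in dark replicate 1, against 50.2 to 50.5. Pigment genes tyrp1b and tyr were 144 and 12.8 in dark replicate 4, against 129 to 130.2 and 9.82 to 10.3, and gpnmb was 25.6 in cycle replicate 2, against 26.8 in each of the others.

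Several of the widest differences also held such a library. For slc1a2a, cycle replicate 3 was at 0.320, against 1.09 to 1.16, and for ptgdsb.1, cycle replicate 4 was at 301, against 451 to 478. In dark replicate 1 mat2ab was 12.1, against 14.9 to 15.5, and in cycle replicate 2 hbae5 was 4.21, against 1.91 to 2.27. The groups of all 4 genes remained apart with these libraries in.

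Of stress, gut and metabolic genes, ier2a was 28.7 in dark replicate 4, against 41.0 to 43.3, and slc2a2 was 23.9 there, against 19.9 to 20.5. In dark replicate 2 fabp2 was 25.2, against 19.2 to 20.1. Under the cycle, sqstm1 was 27.4 and uros 12.7 in replicate 1, against 31.0 to 31.7 and 10.7 to 11.0, while cat was 54.1 and foxo3b 16.9 in replicate 4, against 48.4 to 49.0 and 18.4 to 18.6.

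In the remaining lists, atp2a1l was 389 in dark replicate 3, against 338 to 343, and pvalb4 was 459 in cycle replicate 2, against 419 to 425. Envoplakin evplb was 35.7 in cycle replicate 4, against 28.9 to 29.8, and mcm7 was 44.9 in dark replicate 1, against 49.9 to 50.7. In dark replicate 2 nuf2 was 8.42, against 7.14 to 7.29, and rpl36a was 94.8, against 69.6 to 72.2. The hatching enzyme he1.1 was 0.702 in cycle replicate 2, against 0 in the other 3 cycle libraries.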

How the results depend on the processing

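The counts of genes past the threshold stayed within 1.5 times the reported 4006 under each alternative, between 3331 and 4248, and at 2809 to 3711 with 1 library left out (1390 to 1898 higher and 1419 to 1813 lower). Of the 4006 genes, 2335 (58.3%) were called in all 8 fits that left out 1 library and 3685 (92.0%) by limma-voom. Among 248 named genes, the fit of all 24 libraries ended 15 calls, the other alternatives on all 8 libraries 0 to 7 each, and the 8 fits without 1 library 71 in all. Signs reversed for xpc with FPKM as deposited (−0.0022) and with 1 library left out (3 of 8 fits, over a range of −0.113 to 0.0829), and for mt-co1 (0.031) and mt-co3 (0.014) with total fragments. None of these passed the threshold in the reported comparison, and the cause was not tested.

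Dark and cycle libraries with the same replicate number had deviations that correlated with r of 0.0130, 0.0615, 0.0421 and 0.0048, and not every library correlated best with its own number. Clutches are not given, so whether libraries of the same number share an origin cannot be told. With replicate number as a block 3331 genes passed (1634 higher, 1697 lower), and 7 named genes were no longer called while 1 more was. In low genes depth limits what can be seen, as 1 fragment is a large part of a value.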

Other observations

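Counts for gene groups outside those described follow, and some of them lie near or below the shares of all genes. The genes below, unless they are among those named by rule, were chosen after their values were seen. Glial genes had 6 of 24 higher in darkness and 1 lower, at a limma adjusted p under 0.05, against 10.8% and 11.0% of all genes. The glutamate carriers slc1a3b and slc1a2b, which clear transmitter from synapses, were at 0.49 and 0.33 on the log2 scale, and the myelin gene mag at 0.52, and the calls of slc1a3b and mag were lost when all 24 libraries were fitted together. Of 25 genes in the list of other retinal neurons 5 fell and 1 rose (4 or 5 and 0 to 2 with a library left out), against the same shares. The falls include the photoreceptor regulator crx, also counted in the pineal list, and the bipolar cell factor vsx1 was at −0.83. Heart genes had 4 of 16 lower, against 11.0% of all genes. Of the 4, tnnt2a (−0.44) and cmlc1 (−0.48), both of the contractile apparatus, kept their calls with any library left out.

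Mineral and iron genes moved in both directions, 4 of 16 higher and 3 lower, and 2 or 3 were higher and 3 or 4 lower with a library left out. The phosphate transporter slc34a1a was at 1.42, and cyp24a1, which inactivates vitamin D, at −1.17. In the haem and globin list, ppox, a haem synthesis enzyme, was at 1.11 and the biliverdin reductase blvrb at −0.63. Splicing genes had 12 of 68 higher and 5 lower, and 7 to 13 were higher and 2 to 5 lower with a library left out, with the splicing kinase clk4a at 0.54 and the cold-inducible RNA binding protein gene cirbpb at −0.43. Mitochondrial ribosome genes had 4 of 66 in each direction, below the shares of all genes, and 3 to 5 were higher and 1 to 4 lower with a library left out.

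The hatching enzyme he1.1 was called higher in darkness (3.49), a call lost without any 1 of 6 libraries. The clone-named gene LO018432.1 had no fragment in the 4 dark libraries of the vehicle and averaged 2.41 FPKM (SD 1.39, n = 4) under the cycle.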
